A study of Arabidopsis thaliana with 14 samples.

Results

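Nucleosome occupancy of *FLC* before cold was compared across genotypes in the 6 warm libraries of a targeted MNase-seq series of 14, of which 3 were *vrn1-4* FRI and 3 WT FRI. The libraries were chosen by their labels alone. WT FRI is Col-0 carrying an active *FRIGIDA* (*FRI*) allele brought in from San Feliu-2. The *vrn1-4* FRI mutant has the same background and carries the *vrn1-4* allele, which came from fast-neutron mutagenesis. *VRN1* was not among the loci enriched in these libraries, so the genotype rests on the labels. Whole seedlings were grown for 10 days at 22 °C in 16 h light and 8 h dark, and 1.5 g of seedlings were pooled for each replicate. Each value is therefore an average over all cell types of the seedling. The 8 libraries from seedlings given 1 further week at 5 °C (4 of each genotype) served to estimate the spread and to test whether the warm difference changed with cold.

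*FLC* encodes a MADS-box transcription factor that represses flowering. *FRI* keeps *FLC* active, and prolonged cold silences it through Polycomb in the process of vernalisation. VRN1 is a DNA-binding protein with plant-specific B3 domains that is needed for *FLC* to remain silenced after cold. MNase cuts unprotected DNA, most readily at A and T, so a fragment that survives digestion marks DNA wrapped by a nucleosome or covered by another protein.

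*FLC* (AT5G10140) lies on the minus strand of chromosome 5 from 3173382 to 3179448 in TAIR10, with its transcription start site (TSS) at 3179448. The target region runs from 3172382 to 3181949 (9568 bp) and holds the gene of 7 exons, 2501 bp upstream and 1000 bp downstream. Fragments of 100 to 150 bp were placed by their midpoint, and occupancy is the percentage of all *FLC* fragments of a library that fell in a region or bin. Distances from the TSS are positive in the direction of transcription. The percentages of a library add up to 100, so a gain in one place requires a loss in another, and a gain or loss over all of *FLC* cannot be seen.

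The *FLC* sequences that were higher in *vrn1-4* FRI tended to have more G and C than those that were lower (bins of 32 to 57% and of 17 to 34% GC), and 3 examples are shown for that reason. They were taken from the RefSeq copy of TAIR10 and are written 5′ to 3′ on the strand of *FLC*, with every run of 2 or more G or C in capitals. The first is a fragment of intron 2 (chr5:3175451-3175561, 111 bp, 39.6% GC) and is the one with the largest rise. The second is a fragment of intron 1 (chr5:3176530-3176677, 148 bp, 31.1% GC) that fell. The last is the bin upstream of the gene with the largest fall (chr5:3180282-3180381, 100 bp, 17% GC).
intron 2 fragment: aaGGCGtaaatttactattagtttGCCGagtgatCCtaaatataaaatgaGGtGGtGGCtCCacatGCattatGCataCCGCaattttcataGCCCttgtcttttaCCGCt
intron 1 fragment: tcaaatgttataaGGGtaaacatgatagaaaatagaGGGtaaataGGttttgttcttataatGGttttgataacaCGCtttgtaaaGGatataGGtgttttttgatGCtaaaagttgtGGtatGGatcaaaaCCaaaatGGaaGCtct
upstream bin: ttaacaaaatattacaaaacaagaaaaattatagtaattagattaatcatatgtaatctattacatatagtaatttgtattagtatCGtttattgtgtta
The fragments from introns 2 and 1 hold 12 and 13 runs of G or C, in 111 and 148 bases, so their runs do not tell them apart. The upstream bin holds 1 such run in its 100 bases.

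The warm libraries differed in how many distinct fragments they held, which was 27911, 14166 and 90960 in WT FRI replicates 1, 2 and 3 and 77149, 63003 and 82621 in *vrn1-4* FRI. Only fractions were deposited, so the depth is not stated and no counting interval is given. The smallest fraction of a library is set by its depth where a fragment was seen once. It was 8.17e-06, 2.09e-05 and 1.09e-06 in WT FRI replicates 1, 2 and 3, and 1.795e-06, 2.69e-06 and 1.49e-06 in *vrn1-4* FRI. On that reading WT FRI replicate 2 was the shallowest of the warm libraries and WT FRI replicate 3 the deepest. Over 96 bins of 100 bp, the occupancy of 2 libraries correlated with r from 0.971 to 0.977 within WT FRI, from 0.982 to 0.992 within *vrn1-4* FRI and from 0.913 to 0.961 between the genotypes (9 pairs). These bins are neighbours on one locus and share its base composition, so the r values are descriptive.

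Exon 1, the block from exon 2 to exon 3 and intron 4 held a larger part of the *FLC* fragments in *vrn1-4* FRI, and introns 3 and 6 held a smaller part. Of 15 regions, 7 (46.7%) passed the limma test on log2(share + 0.0001) at a Benjamini-Hochberg adjusted p of 0.05, 5 higher (33.3%) and 2 lower (13.3%), and 8 had an unadjusted p under 0.05. In all 7 the 3 libraries of one genotype lay on one side of the other 3. The means of the genotypes differed by 1.24-fold (intron 6) to 1.395-fold (intron 3). When each distinct fragment was counted once, whatever its frequency, 0 regions passed in limma (2 at an unadjusted p under 0.05). The warm libraries held from 14166 (WT FRI replicate 2) to 90960 (WT FRI replicate 3) distinct fragments. A part of this imbalance in the lost calls was not tested.

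Intron 2 had the smallest p of the regions. It held 3.73, 4.28 and 3.97% of the fragments in WT FRI replicates 1, 2 and 3, and 5.29, 5.01 and 5.66% in *vrn1-4* FRI. All 3 mutant libraries were above all 3 of WT FRI, with means of 5.32% ± 0.328 (SD, n = 3) and 3.99% ± 0.274 and a log2 difference of 0.41 (SE 0.0701, limma adjusted p = 0.000717). Intron 2 contains a TGCATG sequence, the RY motif recognised by the B3-domain protein VAL1. The short exons on either side rose with it. Exon 3 held 1.08, 1.11 and 1.12% in WT FRI against 1.61, 1.36 and 1.599% in *vrn1-4* FRI (log2 difference 0.46, SE 0.0875, limma adjusted p = 0.0011). Exon 2 held 0.616, 0.6205 and 0.734% against 0.827, 0.933 and 0.901% (0.43, SE 0.105, limma adjusted p = 0.00434). The mutant libraries were the 3 highest in both exons.

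Exon 1, which holds the TSS, the 5′ UTR and the first coding bases, rose by the largest amount in percentage points. It held 7.05, 6.60 and 4.89% in WT FRI and 8.58, 8.24 and 8.71% in *vrn1-4* FRI, a log2 difference of 0.48 (SE 0.154, limma adjusted p = 0.0177). WT FRI replicate 3 was the lowest of the 6. Without it the adjusted p was 0.0935, and without *vrn1-4* FRI replicate 3 it was 0.0525. Intron 4 rose from 2.33, 1.92 and 1.81% to 2.39, 2.71 and 2.70% (0.37, SE 0.101, limma adjusted p = 0.00865), and the lowest mutant library was close to the highest of WT FRI. Per 100 bp, intron 4 (2.59% in WT FRI and 3.33% in *vrn1-4* FRI), intron 2 (2.24 and 2.99%) and exon 1 (2.10 and 2.90%) were more densely covered than intron 1 (1.06 and 0.963%).

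Intron 6, the long intron before the last exon, fell from 7.56, 8.17 and 8.43% in WT FRI to 6.36, 6.79 and 6.34% in *vrn1-4* FRI (log2 difference −0.31, SE 0.0689, limma adjusted p = 0.00293). Intron 3, which follows the raised exon 3, fell from 0.930, 0.740 and 0.909% to 0.584, 0.632 and 0.633% (−0.47, SE 0.136, limma adjusted p = 0.0106). The 3 mutant libraries were the lowest in both introns. Centring each library on its median region ended the call of intron 6 (−0.24, limma adjusted p = 0.067).

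The other 8 regions did not pass the test. Intron 1 held the largest part of the fragments, 37.6, 35.2 and 38.2% in WT FRI and 32.3, 34.9 and 33.8% in *vrn1-4* FRI. The groups were separate, but the margin was narrow (log2 difference −0.14, limma adjusted p = 0.0684). The genotypes overlapped in the remaining 7 regions, whose limma adjusted p ranged from 0.145 to 0.346. Their log2 differences were −0.06 in the upstream flank, 0.16 in exon 4, −0.26 in exon 5, −0.13 in intron 5, −0.13 in exon 6, 0.18 in exon 7 and 0.13 in the downstream flank. Exon 6 held only 0.0479% of the fragments in WT FRI and 0.0430% in *vrn1-4* FRI.

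**Figure D1:**
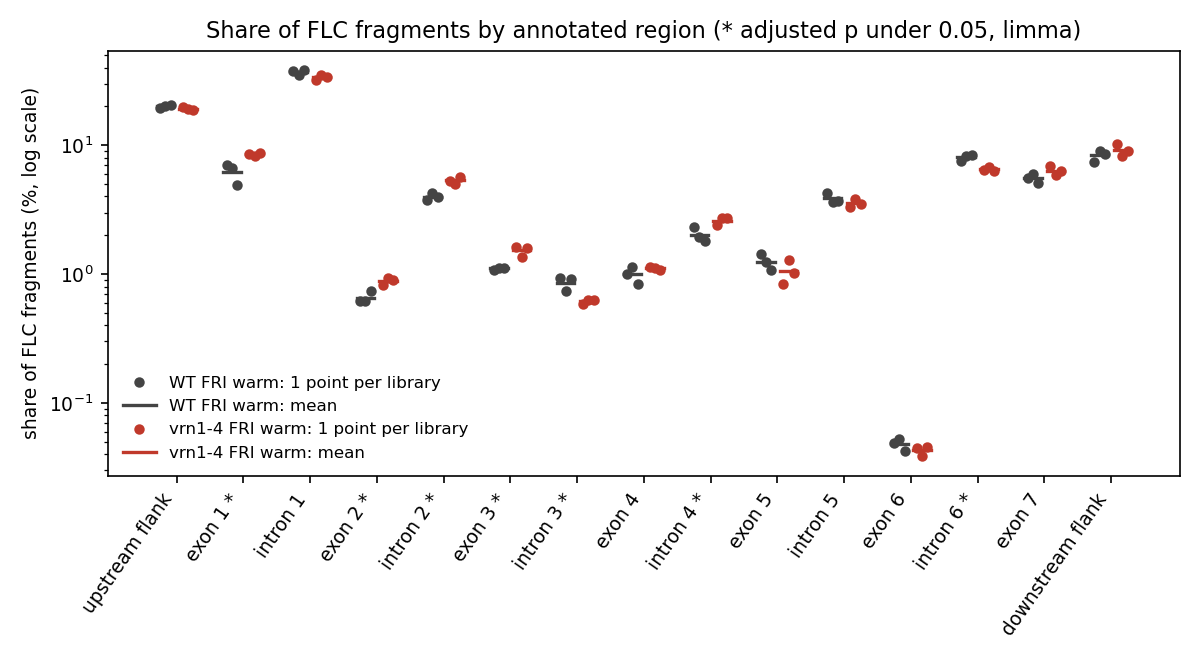
Percentage of *FLC* fragments of each warm library with a midpoint in each of the 15 regions (log axis), with 1 point per library, a bar for the mean of each genotype and a star where the limma test was passed. Exons 1, 2 and 3 and introns 2 and 4 were higher in *vrn1-4* FRI and introns 3 and 6 lower, while intron 1 held 37.0% in WT FRI and 33.6% in *vrn1-4* FRI and has no star.

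At a resolution of 100 bp the losses were more numerous than the gains and reached into intron 1 and both flanks. Of the 96 bins, 35 (36.5%) passed the limma test, 8 higher in *vrn1-4* FRI (8.33%) and 27 lower (28.1%), and 42 had an unadjusted p under 0.05. The genotypes did not overlap in 48 of the 96 bins, with the mutant above in 14 (14.6%) and below in 34 (35.4%), and all 35 bins that passed were among these. The median log2 difference of all bins was −0.16, and after centring each library on its median bin 28 bins passed, 13 higher and 15 lower. The count also depended on single libraries: 13 bins passed without WT FRI replicate 3, 16 without *vrn1-4* FRI replicate 1 and 23 without *vrn1-4* FRI replicate 3, and 13 passed whichever library was left out. With each distinct fragment counted once, 11 bins passed, 6 higher and 5 lower.

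The 27 lower bins were spread over intron 1 (10 of its 35 bins), the upstream flank (7 of 25), intron 6 (6 of 10), the downstream flank (3 of 10) and intron 3 (its only bin). The 8 higher bins were both bins of intron 2, 2 in intron 1 and 1 each in exon 1, exon 7, the upstream flank and the downstream flank. Merging neighbours that passed in the same direction gave 22 stretches, 7 higher and 15 lower.

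**Figure D2:**
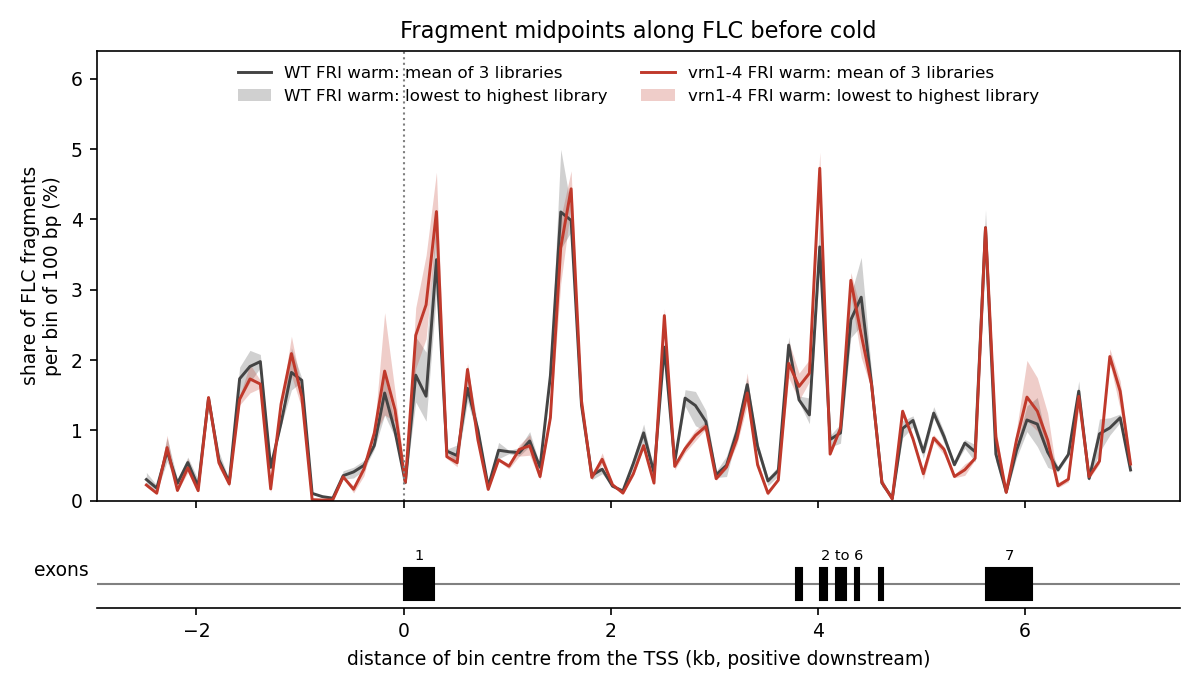
Occupancy of *FLC* in bins of 100 bp, as the percentage of fragments with a midpoint in each bin against distance from the TSS in kb, with the mean of each genotype as a line, the lowest to the highest library as a band and the exons as boxes. The median peak positions of the genotypes lay within 10 bp at 38 of 52 peaks, which include peaks where all libraries lay about 50 bp off the mean profile. The *vrn1-4* FRI line stood higher at intron 2 (6.54% against 4.83% over the 200 bp that passed).

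Near the TSS 1 bin rose. It lies inside exon 1 (3179182 to 3179281, 57% GC, the highest GC of all bins) and held 1.21, 2.11 and 1.13% in WT FRI against 3.49, 2.57 and 2.30% in *vrn1-4* FRI. The 3 mutant libraries were the highest, but the spread was wide in both genotypes, and the log2 difference of 0.94 (SE 0.348, limma adjusted p = 0.0483) only just passed. It passed in only 1 of the 6 fits that left out a library (adjusted p 0.0668 to 0.179 in the others).

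Inside intron 1, which holds the sequences that Polycomb proteins use to start silencing near its 5′ end, the call with the smallest p of all bins was a fall. Bin 3176682 to 3176781 (28% GC) held 1.58, 1.34 and 1.45% in WT FRI and 0.681, 0.730 and 0.802% in *vrn1-4* FRI. The mean of the mutant was 0.506 of that of WT FRI, with no overlap (log2 difference −0.97, SE 0.134, limma adjusted p = 0.000445). Further toward exon 2, bin 3175882 to 3175981 (25% GC) fell from 0.327, 0.211 and 0.300% to 0.0770, 0.105 and 0.132% (−1.34, SE 0.235, limma adjusted p = 0.00163). Both bins kept their call in every alternative tried. The 2 bins of intron 1 that rose did so by less: 3176882 to 3176981 (41% GC) from a mean of 2.18% to 2.63% (0.27, limma adjusted p = 0.0359) and 3177482 to 3177581 (49% GC) from 0.446% to 0.588% (0.39, limma adjusted p = 0.0402). Each lost its call in several of the fits that left out 1 library.

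The 2 bins of intron 2 that rose adjoin each other. Bin 3175382 to 3175481, which also takes in exon 3 bases, held 3.46, 4.03 and 3.34% in WT FRI and 4.85, 4.38 and 4.96% in *vrn1-4* FRI (log2 difference 0.39, SE 0.1004, limma adjusted p = 0.0105). Bin 3175482 to 3175581 held 1.09, 1.10 and 1.46% against 1.74, 1.69 and 2.01% (0.58, SE 0.137, limma adjusted p = 0.00657). The mutant libraries were above those of WT FRI in both bins. The first lost its call without WT FRI replicate 3 (adjusted p = 0.0605).

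The longest stretch that changed was in intron 6, where 6 bins in a row (3173982 to 3174581, 29.8% GC) fell from 5.09, 5.35 and 5.51% to 3.50, 3.92 and 3.56%. The bins with the smallest p there were 3174082 to 3174181 (log2 difference −0.56, SE 0.0959, limma adjusted p = 0.00163) and 3174282 to 3174381 (−0.48, SE 0.0955, limma adjusted p = 0.00248). Exon 7, next to this stretch, had 1 bin that rose (3173682 to 3173781, 0.661% ± 0.104 in WT FRI and 0.907% ± 0.1303 in *vrn1-4* FRI, SD, n = 3 each). Its log2 difference was 0.45 (limma adjusted p = 0.0363), and leaving out any of 4 of the 6 libraries ended the call.

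In the downstream flank, 2 nearby bins moved in opposite directions. Bin 3172582 to 3172681 (47% GC) held 0.933, 1.18 and 0.992% in WT FRI and 2.16, 1.96 and 2.03% in *vrn1-4* FRI, the largest gain of any bin (log2 difference 0.99, SE 0.210, limma adjusted p = 0.00313). Bin 3172982 to 3173081 (27% GC) held 0.638, 0.706 and 0.624% against 0.267, 0.320 and 0.328% (−1.08, SE 0.196, limma adjusted p = 0.00163). The libraries of a genotype were close to each other in both bins.

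The largest falls were in the A- and T-rich DNA upstream of the gene. The stretch from 3180082 to 3180381 (18.7% GC), whose near end is 634 bp before the TSS, held 0.212, 0.171 and 0.2002% in WT FRI and 0.0223, 0.0293 and 0.0485% in *vrn1-4* FRI. That is a 5.83-fold difference of means, in a place that few fragments cover in either genotype. Within it, bin 3180282 to 3180381, whose sequence is printed above, held 0.120, 0.0878 and 0.102% against 0.00969, 0.00807 and 0.0231% (−2.31, SE 0.439, limma adjusted p = 0.00203). Its neighbour 3180182 to 3180281 fell by 1.89 on the log2 scale (SE 0.345, limma adjusted p = 0.00163), a scale that understates the change of bins this low. Further upstream, 2 adjoining bins went apart. Bin 3180582 to 3180681 (32% GC) rose from 1.09, 1.15 and 1.06% to 1.33, 1.401 and 1.39% (0.31, SE 0.111, limma adjusted p = 0.041). Bin 3180682 to 3180781 (20% GC) fell from 0.464, 0.435 and 0.519% to 0.116, 0.181 and 0.202% (−1.48, SE 0.299, limma adjusted p = 0.00248). The rise lost its call when any 1 of the 6 libraries was left out.

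**Figure D3:**
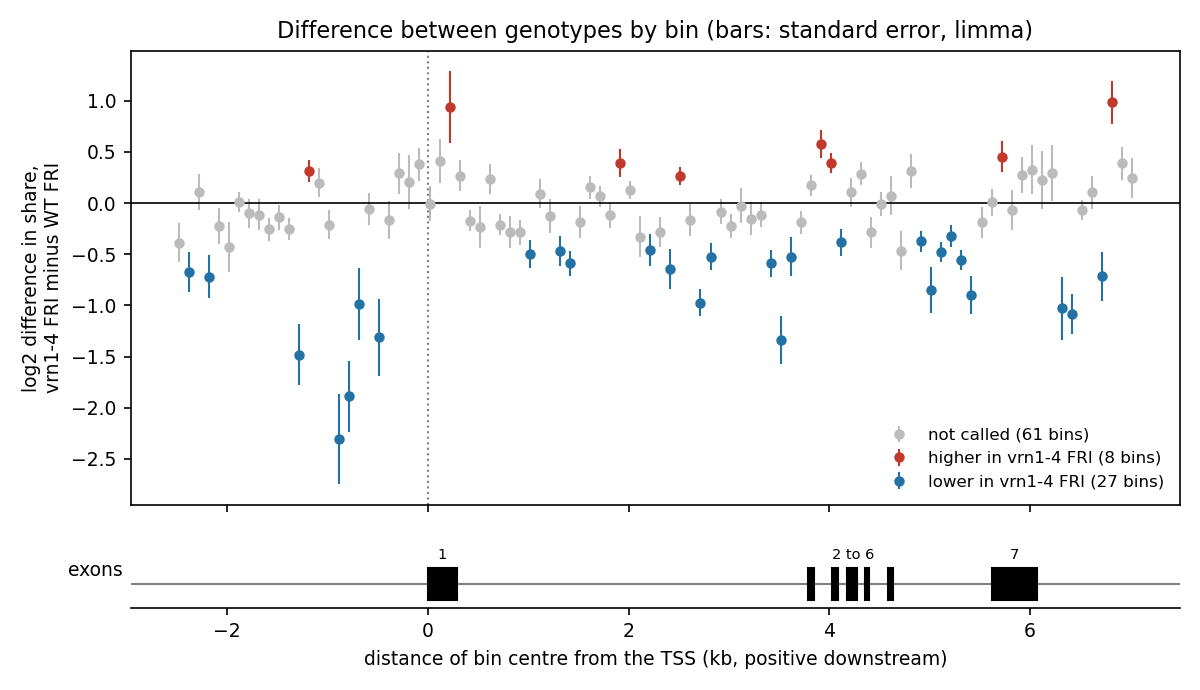
Log2 difference in share (*vrn1-4* FRI minus WT FRI, warm) of each 100-bp bin with its SE, against distance from the TSS in kb, with the bins that passed the limma test coloured (8 higher, 27 lower, 61 not passed). The deepest falls, to −2.31, lie upstream of the TSS, and the largest gains stand at exon 1 (0.94) and in the downstream flank (0.99).

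The direction of the difference followed the base composition of the DNA. Across the 96 bins the log2 difference correlated with the GC percentage of the bin (Pearson's r = 0.81, Spearman's rho = 0.81, a description over neighbouring bins of the same libraries). The median GC was 28% in the lower bins, 34% in those that did not pass and 43% in the higher bins. The 34 bins of 17 to 30% GC together held 21.2, 21.5 and 23.7% of the fragments in WT FRI and 14.7, 16.4 and 15.7% in *vrn1-4* FRI, and 22 of them passed as lower and 0 as higher. The 28 bins of 36 to 57% GC held 43.0, 45.3 and 41.0% against 54.2, 49.6 and 52.1%, and 7 passed as higher and 0 as lower. The genotypes did not overlap in either class, and they overlapped in the 34 bins of 31 to 35% GC, where 1 bin was higher and 5 lower.

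Each library had its own slope of occupancy on GC. Per 10 points of GC the log2 share changed by −0.16, −0.06 and −0.26 in WT FRI replicates 1, 2 and 3 and by 0.59, 0.39 and 0.36 in *vrn1-4* FRI (difference 0.61, exact permutation test, two-sided p = 0.1, the smallest that 3 against 3 libraries allow). The mean GC of the fragments was 36.2, 36.5 and 35.7% in WT FRI and 38.3, 37.7 and 37.9% in *vrn1-4* FRI (exact permutation p = 0.1). After the linear relation with GC was taken out of each library, 18 bins passed, 1 higher and 17 lower, of which 15 were among the 35. Of the 8 higher bins, 1 kept its call (3180582 to 3180681) and 2 passed in the opposite direction, and 12 of the 27 lower bins kept theirs. Of the regions only exon 4 then passed (−0.40, limma adjusted p = 0.00328), and exon 1 stood at −0.19 (limma adjusted p = 0.26). The first base inside a fragment end was A or T, the bases MNase prefers, at 92.2, 88.9 and 91.4% of ends in WT FRI and 90.8, 91.0 and 90.5% in *vrn1-4* FRI (exact permutation p = 1). Genotype and library differ together here, so a GC effect of the mutation and a GC effect of making the libraries cannot be told apart. The cold libraries also differed in slope, from −0.57 to −0.16 in WT FRI and from −0.12 to 0.47 in *vrn1-4* FRI.

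**Figure D4:**
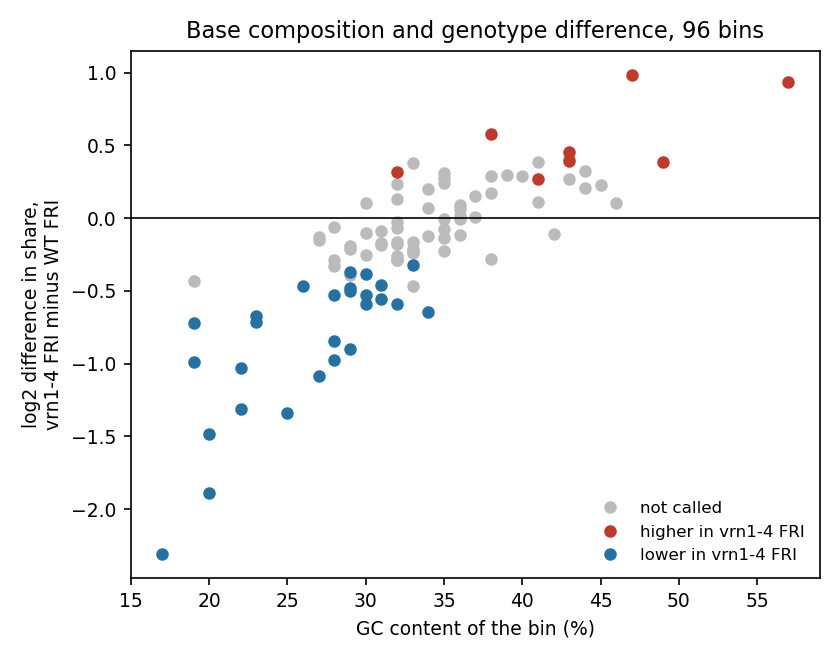
Log2 difference in share (*vrn1-4* FRI minus WT FRI, warm) of each of the 96 bins against its GC percentage, coloured by call. Bins of 30% GC or less hold 22 of the 27 lower calls, and bins of 36% GC or more hold 7 of the 8 higher calls.

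The nucleosomes on either side of the TSS had their most frequent midpoints within a few bp of each other in both genotypes. The most frequent midpoint of the −1 nucleosome was at −135 or −136 bp in all 6 libraries. That of the +1 nucleosome was at 144, 144 and 148 bp in WT FRI and at 148 bp in all 3 *vrn1-4* FRI libraries, and that of the +2 nucleosome was at 288, 284 and 293 bp against 290, 284 and 290 bp. The +3 window varied more, with 456, 458 and 489 bp in WT FRI and 465 bp in all 3 *vrn1-4* FRI libraries. A nucleosome in exon 7, the last exon, was centred 5641 bp from the TSS in all 6 libraries. Its window is called TTS-proximal here, with TTS for the transcript end. It was set on the most frequent midpoint of exon 7, and a later peak of that exon lay at 5919 bp. Along the whole locus 52 peaks of midpoints were found in the mean profile, and the median position of the genotypes lay within 10 bp of each other at 38 of them and at most 50 bp apart at the others. No position of a library lay further than 50 bp from its peak in the mean profile, and some lay at that limit. At the peak 756 bp from the TSS all 6 libraries lay at 706 or 707 bp. The counts within 10 bp include such peaks, so they do not show that every peak kept its place. All 3 WT FRI libraries lay within 10 bp of each other at 29 peaks, all 3 *vrn1-4* FRI libraries at 37 and all 6 libraries at 18.

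Occupancy of 8 nucleosome windows was compared by exact permutation tests. An exact permutation test of 3 libraries against 3 cannot go below p = 0.1, so no window could pass, and the values are given with their overlap. The −1 nucleosome (−200 to −60 bp) held 1.77, 2.31 and 2.02% of the fragments in WT FRI and 3.50, 1.96 and 2.25% in *vrn1-4* FRI (exact permutation p = 0.5), where *vrn1-4* FRI replicate 1 stood apart above the other 5. The gap over the TSS (−50 to 50 bp) held 0.273, 0.297 and 0.299% against 0.380, 0.303 and 0.270% (exact permutation p = 0.5). The groups overlapped in both windows.

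The +1 nucleosome (60 to 200 bp) held 2.82, 2.23 and 1.82% in WT FRI and 2.74, 3.01 and 3.36% in *vrn1-4* FRI (exact permutation p = 0.2). Its TSS-proximal part (70 to 119 bp) held 0.391, 0.361 and 0.344% against 0.571, 0.505 and 0.509%, and its TSS-distal part (120 to 179 bp) held 2.09, 1.47 and 1.201% against 1.59, 2.16 and 2.51%. The proximal part was higher in all 3 mutant libraries (exact permutation p = 0.1), and the distal part overlapped (exact permutation p = 0.2). The ratio of proximal to distal fragments, a measure of how far the +1 nucleosome reaches toward the TSS, was 0.187, 0.246 and 0.287 in WT FRI and 0.360, 0.234 and 0.202 in *vrn1-4* FRI (exact permutation p = 0.7). It therefore varied as much within a genotype as between them.

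The +2 nucleosome (220 to 380 bp), which spans the end of exon 1 and the start of intron 1, held 4.71, 4.39 and 3.54% in WT FRI and 5.80, 5.32 and 5.97% in *vrn1-4* FRI. All mutant libraries were higher, with a difference of 1.49 percentage points (exact permutation p = 0.1). The +3 window (380 to 540 bp) held 1.15% ± 0.174 (SD, n = 3) against 1.07% ± 0.0736 (exact permutation p = 0.6). The window around the last nucleosome held 4.56, 4.68 and 3.93% against 4.70, 4.57 and 4.62% (exact permutation p = 0.4). The mean midpoint within 200 bp downstream of the TSS was 138 bp ± 2.34 in WT FRI and 140.7 bp ± 0.784 in *vrn1-4* FRI (SD, n = 3 each, exact permutation p = 0.2), and that within 200 bp upstream was 127.8 ± 3.00 and 128.6 ± 4.58 bp from it (exact permutation p = 1). The SD of the midpoints also overlapped on both sides (exact permutation p = 0.6 and 0.2).

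The RY motif is the sequence recognised by VAL1, the protein that brings Polycomb factors to the start of *FLC* intron 1. TGCATG or its reverse complement CATGCA, searched on both strands with no overlapping matches, occurred 3 times in the target region. The intron 1 pair is at 3178828 to 3178833 and 3178861 to 3178866, 618 and 585 bp after the TSS, and its bin (chr5:3178782-3178881, 32% GC) is printed on the strand of *FLC* with the motifs in capitals because this is the nucleation element of the gene.
intron 1 RY bin: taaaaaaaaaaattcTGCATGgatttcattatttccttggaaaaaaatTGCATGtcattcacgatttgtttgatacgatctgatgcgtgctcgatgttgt
This bin held 1.41, 1.47 and 1.91% of the fragments in WT FRI and 1.81, 1.83 and 1.96% in *vrn1-4* FRI. The groups overlapped through WT FRI replicate 3, and the bin did not pass (log2 difference 0.24, SE 0.146, limma adjusted p = 0.217). The motif of intron 2 (3175493 to 3175498) lies in the fragment of intron 2 printed first and in bin 3175482 to 3175581, which rose. In total, 2 of 96 bins (2.08%) held the motif, against 3.94% of 269755 windows of 100 bp on chromosome 5, and a match of letters is not a shown binding site.

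The mean fragment length varied more among WT FRI libraries than between the genotypes. The mean length was 128.6, 125.4 and 130.7 bp in WT FRI and 127.2, 124.5 and 127.6 bp in *vrn1-4* FRI (difference −1.78 bp, exact permutation p = 0.4). Fragments of 140 to 150 bp, near the length of a whole nucleosome core, made up 34.7, 26.9 and 40.5% in WT FRI and 30.8, 23.4 and 31.04% in *vrn1-4* FRI. Replicate 2 was the shortest library of each genotype.

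The class of 120 to 129 bp was the one that did not overlap, with 13.9, 15.1 and 12.5% in WT FRI and 15.7, 17.9 and 15.6% in *vrn1-4* FRI (exact permutation p = 0.1). Of the 51 lengths tested singly, 2 (3.92%) passed the limma test, both higher in *vrn1-4* FRI, and 9 had an unadjusted p under 0.05. They were 124 bp (1.47, 1.29 and 1.35% against 1.67, 1.95 and 1.69%, log2 difference 0.37, SE 0.0995, limma adjusted p = 0.0431) and 126 bp (1.3, 1.42 and 1.28% against 1.75, 1.87 and 1.65%, 0.39, SE 0.0951, limma adjusted p = 0.0347). The mutant libraries were the 3 highest at both lengths. The number of lengths that passed was 28 without WT FRI replicate 2, 1 without *vrn1-4* FRI replicate 3 and 0 without any 1 of the other 4 libraries (3 to 8 at an unadjusted p under 0.05).

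Within bins the fragments of *vrn1-4* FRI were mostly a little shorter. All bins share the 6 libraries, whose mean length over *FLC* differed by −1.78 bp with overlap, so the bins are not separate observations. The mean length was below that of WT FRI in 90 of 96 bins, with a median difference of −2.08 bp, and 16 bins (16.7%) passed the limma test, 15 shorter (15.6%) and 1 longer (1.04%), against 30 at an unadjusted p under 0.05. The count was 56 without WT FRI replicate 2, the WT FRI library with the shortest fragments. It was 4 without WT FRI replicate 1, 5 without WT FRI replicate 3, 6 without *vrn1-4* FRI replicate 1 and 5 without *vrn1-4* FRI replicate 2. The shorter bins were 4 each in intron 1 and the upstream flank, 3 in intron 6, 2 in the downstream flank and 1 each in intron 2 and exon 7. With the mean length of the library as a covariate, added after seeing the data, 27 bins passed, 18 shorter and 9 longer. Of the 15 shorter bins, 8 also held a lower share and 1 a higher share, beside 27 and 8 of all 96 bins. The length difference and the log2 share difference had an r of 0.023 over the 96 bins, as a description.

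The bin with the largest shortening was 3179882 to 3179981 upstream of the TSS, with means of 128.6, 126.3 and 128.6 bp in WT FRI and 118.9, 117.2 and 123.6 bp in *vrn1-4* FRI (difference −7.94 bp, SE 1.57, limma adjusted p = 2.6e-05). Bin 3180682 to 3180781, also upstream, fell by 6.53 bp (126.8 ± 2.63 against 120.3 ± 2.03 bp, SD, n = 3 each, limma adjusted p = 0.00116). Both had also lost occupancy. Their p-values rest on 1 spread shared by all bins (SE 1.57 bp). The SDs of the first bin were 1.36 bp in WT FRI and 3.31 bp in *vrn1-4* FRI. With the 6 warm libraries alone, 2 shorter bins passed in limma. The other 3 named bins had differences of −5.40 to −5.72 bp, at 3177582 to 3177681 and 3175982 to 3176081 in intron 1 and at 3180082 to 3180181 upstream (limma adjusted p 0.00691 to 0.00992).

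The bin that went the other way was 3180282 to 3180381, whose fragments were 131.4, 127.1 and 133.9 bp long in WT FRI and 140.9, 144.1 and 135.5 bp in *vrn1-4* FRI (difference 9.38 bp, limma adjusted p = 3.38e-07). Its share was the most reduced of all bins, so the mean length of the mutant rests on 0.0136% of the fragments. The p-value rests on 1 spread that limma shared over all bins (SE 1.57 bp), while the SDs of this bin were 3.46 and 4.36 bp, and the exact permutation test of this bin alone gave p = 0.1.

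**Figure D5:**
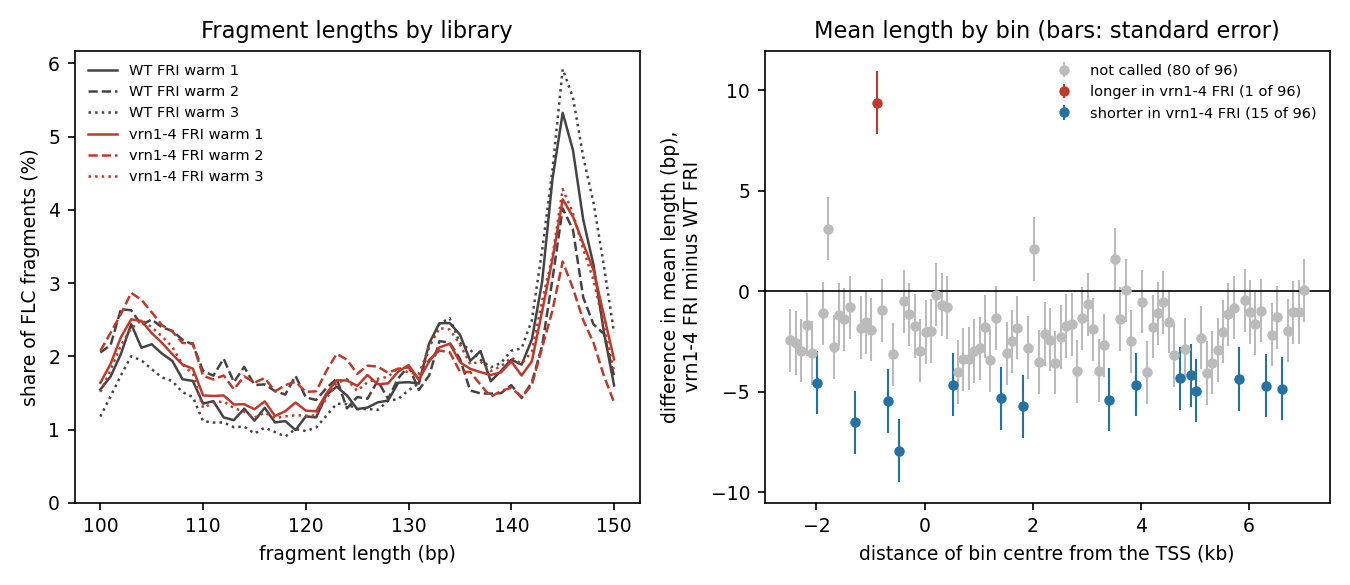
Left, percentage of *FLC* fragments at each length from 100 to 150 bp, with 1 line per warm library. Right, difference in mean fragment length of each 100-bp bin (*vrn1-4* FRI minus WT FRI, in bp, with SE) against distance from the TSS in kb, where most points lie below 0 (median −2.08 bp) and 1 upstream bin stands at 9.38 bp.

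In most stretches that changed, short fragments stood higher relative to WT FRI than long ones. The same order held over all of *FLC*, where the genotypes overlapped. Over the whole target, fragments of 100 to 129 bp made up 46.7% ± 8.26 in WT FRI and 52.7% ± 5.37 in *vrn1-4* FRI (SD, n = 3 each), and the groups overlapped (ratio 1.13, exact permutation p = 0.4). For fragments of 130 to 150 bp the ratio was 0.887. The stretches were chosen by their total share in these same libraries, so separation in that direction is expected in either length class. Values of each length class over all bins are not given, so the ratios that follow are descriptive. In the 15 lower stretches the median mutant-to-WT ratio was 0.508 for fragments of 130 to 150 bp and 0.730 for those of 100 to 129 bp. In the intron 6 stretch, the long fragments fell from 2.51, 2.23 and 3.08% to 1.32, 1.27 and 1.43%, and the short ones went from 2.58, 3.12 and 2.43% to 2.18, 2.65 and 2.13%, so that the short fragments overlapped between the genotypes. In the 7 higher stretches the median ratios were 1.47 for the short fragments and 1.22 for the long. In the intron 2 stretch the short fragments rose from 2.39, 3.11 and 2.12% to 3.60, 3.85 and 3.76%, while the long ones overlapped at 2.17, 2.03 and 2.67% against 2.99, 2.22 and 3.20%. In both stretches the ratio of the short fragments was above that of the long ones, as it was over the whole target. The order was reversed in the lower stretch from 3180082 to 3180381 (0.165 for the short and 0.1765 for the long). It was also reversed in the higher stretch from 3179182 to 3179281 in exon 1 (1.84 and 1.895).

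Single fragments, each defined by its start and end, are those already summed in the bins, so their calls are no separate support. The filter on mean frequency ran over all 14 libraries, so a fragment could pass it through the genotype where it was high. Of 1080 fragments with a mean frequency of at least 0.0001, 69 (6.39%) passed the limma test on log2(frequency + 0.00001), 42 higher (3.89%) and 27 lower (2.5%) in *vrn1-4* FRI, and 327 had an unadjusted p under 0.05. The higher fragments had a median length of 122 bp and a median GC of 43.3%. The lower fragments had a median length of 145 bp and a median GC of 31.5%. For all 1080 the medians were 140 bp and 37.9%. Of the higher fragments, 20 were listed at 0 in at least 1 WT FRI library, and the WT FRI libraries 1 and 2 had the fewest distinct fragments of the 14. No fragment passed in limma when *vrn1-4* FRI replicate 2 or replicate 3 was left out (259 and 254 at an unadjusted p under 0.05), 5 passed without *vrn1-4* FRI replicate 1, 141 without WT FRI replicate 2 and 177 without WT FRI replicate 3. Without both WT FRI replicates 1 and 2, 0 passed in limma (205 at an unadjusted p under 0.05).

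In the block from exon 2 to exon 3, all 15 fragments that passed were higher, which is 11.4% of the 132 fragments tested there against 3.89% of all 1080 (13 in intron 2 and 1 in each exon, 100 to 138 bp long). Intron 1 had 8 higher and 19 lower, the upstream flank 6 and 5, the downstream flank 5 and 1, and intron 6 0 and 2. Exon 1 had 5 higher, exon 7 had 2 and intron 4 had 1, with none lower.

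The fragment with the smallest p was 3173744 to 3173875 (132 bp) in exon 7, at 0.00572, 0.00209 and 0.0139% in WT FRI and 0.0450, 0.0516 and 0.0483% in *vrn1-4* FRI (log2 difference 2.86, SE 0.471, limma adjusted p = 0.00687). The fragment of intron 2 printed above (3175451 to 3175561) was at 0.00163, 0 and 0.00678% against 0.0415, 0.0454 and 0.0506% (4.09, SE 0.794, limma adjusted p = 0.0109). In both, the mutant libraries were close to each other and lay above all of WT FRI. WT FRI is near the floor here, as 0.00209% is the smallest fraction that WT FRI replicate 2 holds. The size of these log2 differences therefore depends on few fragments in WT FRI replicates 1 and 2 and on the pseudocount. The other 3 named higher fragments all lie in intron 2 (3175408 to 3175539, 3175424 to 3175539 and 3175439 to 3175561), share their ends with each other or with the printed fragment, and had log2 differences of 2.53, 2.63 and 3.07 (limma adjusted p = 0.0109 each).

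Of the fragments that fell, the fragment of intron 1 printed above (3176530 to 3176677, 148 bp) was at 0.0539, 0.0230 and 0.0290% in WT FRI and 0.00431, 0.00403 and 0.00357% in *vrn1-4* FRI (−2.78, SE 0.510, limma adjusted p = 0.0109). Fragment 3173958 to 3174104 of intron 6 (147 bp) was at 0.0924, 0.0773 and 0.0630% against 0.0149, 0.0153 and 0.0171% (−2.21, SE 0.457, limma adjusted p = 0.0122). No library of one genotype reached the range of the other. The remaining 3 named, 3177961 to 3178105, 3177988 to 3178135 and 3177999 to 3178135, overlap each other in intron 1 and fell by 2.72, 1.85 and 2.63 on the log2 scale (limma adjusted p 0.0109 to 0.0219).

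The 5 most frequent fragments of the warm libraries did not pass. Those in exon 7 were 3173736 to 3173883 (0.151% ± 0.0238 in WT FRI and 0.144% ± 0.0226 in *vrn1-4* FRI, SD, n = 3 each) and 3173740 to 3173883 (0.175% ± 0.0817 and 0.0879% ± 0.0368). Fragments 3177866 to 3178010 and 3177868 to 3178010 of intron 1 had limma adjusted p of 0.132 and 0.0778 and overlapped between the genotypes. Fragment 3179108 to 3179253, which crosses from exon 1 into intron 1, was at 0.0989, 0.0982 and 0.0720% in WT FRI and 0.193, 0.114 and 0.13% in *vrn1-4* FRI (0.67, limma adjusted p = 0.307).

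The warm difference was also seen after 1 week of cold, in the 8 other libraries. There 41 bins (42.7%) passed, 12 higher (12.5%) and 29 lower (30.2%) in *vrn1-4* FRI. Of the 35 bins that passed in the warm, 31 passed in the cold in the same direction, which is 88.6% of the warm calls and 75.6% of the cold calls, and all 35 had the same sign. The difference between the warm and the cold effect, tested as an interaction in limma, passed in 1 of 96 bins and in 0 of 15 regions. That bin, 3178982 to 3179081 in intron 1, did not pass in the warm (log2 difference −0.17, limma adjusted p = 0.192).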

How the data were processed

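*FLC* fragments were measured by targeted MNase-seq in 14 Arabidopsis libraries, of which the 6 warm ones (3 WT FRI, 3 *vrn1-4* FRI, grouped by their labels) were compared. Nuclei (65 mg) were digested with 10 U of MNase for 30 min at 37 °C, indexed with 8 PCR cycles and enriched with baits for *FLC* and other loci, of which the 237 *FLC* baits of 80 bp all matched the *FLC* target. Per the study's methods and the labels, the authors removed adaptors (fastp), mapped the pairs with Bowtie2 on TAIR10 and sorted them by locus (SAMtools 1.5), leaving out reads of poor base quality. Fragments were then rebuilt from each pair, and those of 100 to 150 bp were kept. They deposited a fraction per distinct fragment of each library, which is its number divided by all *FLC* fragments. Replicates were not pooled, and removal of PCR duplicates is not stated. There were 0 unused columns of values. Depth is not given, so precision rests on the spread between libraries. Extent of digestion and the length limits both affect which fragments are counted.

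Fractions were summed by midpoint over 15 regions, 96 bins of 100 bp (mean share of at least 0.0001) and 51 lengths. Regions, bins, lengths and single fragments were tested on the log2 scale (pseudocount 0.0001, or 0.00001 for fragments) and mean lengths of bins in bp with limma 3.58.1 (R 4.3.3), over all 14 libraries in 4 groups (10 residual degrees of freedom, and for mean lengths 1 spread shared by all bins), with p-values adjusted after Benjamini-Hochberg and called under 0.05. Fits were tested on simulated data. For values given once per library, exact permutation tests were two-sided (20 arrangements, smallest p 0.1). The study names them biological replicates without saying how they were grown apart, so p-values measure the spread between these libraries. Named bins were the 8 higher and 8 lower with the smallest p, named bins for length and named fragments the 5 in each direction, plus the 5 most frequent fragments. Members, windows and tests were chosen with earlier results of these data known. GC correction, the library's mean length as a covariate and removal of the WT FRI libraries with the fewest fragments were added after seeing the data. Other steps ran in Python 3.11.15 (scipy 1.17.1, pandas 2.3.3, numpy 2.4.6), and plots in matplotlib 3.10.9.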

Additional observations from a re-analysis of the deposited data

Results flagged for a closer look

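Of the tests of whether the genotype difference itself differed between warm and cold, 2 passed in limma with Benjamini-Hochberg adjustment. The first was the share of bin 3178982 to 3179081 in intron 1, 417 bp after the TSS at its middle, where the warm log2 difference exceeded that after 1 week of cold by 0.61 (adjusted p = 0.0373). Before cold, WT FRI held 0.704% ± 0.0252 there and *vrn1-4* FRI 0.624% ± 0.0403 (SD, n = 3 each). After cold it was 1.03% ± 0.0659 and 0.593% ± 0.0489 (SD, n = 4 each), a log2 difference of −0.79. The WT FRI libraries were therefore higher after cold, and the *vrn1-4* FRI means lay close together.

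The second was the mean fragment length in the upstream bin 3180282 to 3180381, where the warm and cold differences were 9.13 bp apart (adjusted p = 0.00122, from a spread shared by all bins). Before cold the means were 130.8 ± 3.46 bp in WT FRI and 140.2 ± 4.36 bp in *vrn1-4* FRI. After cold they were 133.7 ± 0.678 and 133.9 ± 3.19 bp. This bin held 0.0136% in *vrn1-4* FRI before cold, which is among the lowest shares of all bins. A part of low coverage in the length difference was not tested.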

How the results depend on the processing

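Leaving out 1 library at a time gave 13 to 32 bins that passed (35 with all), 6 to 8 regions (7), 0 to 28 lengths (2), 4 to 56 bins for mean length (16) and 0 to 177 single fragments (69). Without both WT FRI libraries with the fewest distinct fragments these counts were 22, 6, 39, 66 and 0 (limma, 205 fragments at an unadjusted p under 0.05). With the 6 warm libraries alone they were 31, 7, 0 (2 lengths at an unadjusted p under 0.05), 3 and 30. Counting each distinct fragment once gave 11 bins (6 higher, 5 lower, 7 of them among the 35), 0 regions (limma, 2 at an unadjusted p under 0.05), 4 lengths and 4 bins for mean length. GC correction gave 18 bins (15 among the 35), 1 region (exon 4, not among the 7) and 28 fragments. The library's mean length as a covariate gave 16 bins and, for mean length, 27 (18 shorter, 9 longer). Bins of 50 and 200 bp gave 63 of 189 and 20 of 48. Centring moved the share of higher calls from 22.9% to 46.4%. A 10 times smaller or larger pseudocount gave 9 or 153 fragments, and a minimum frequency of 0.0002 or 0.00005 gave 44 of 328 or 288 of 3058. For mean length, a minimum share of 0.002 gave 10 bins, and the share of fragments of at most 120 bp passed in 7. The causes of these shifts were not tested.

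Same-numbered deviations correlated with r of −0.60, −0.22 and 0.08, so these deviations did not pair the libraries by replicate number. The mean fragment length over *FLC* did have the same order of replicates in both genotypes. It was 128.6, 125.4 and 130.7 bp in WT FRI replicates 1, 2 and 3 and 127.2, 124.5 and 127.6 bp in *vrn1-4* FRI. With the replicate block 38 bins (34 of them among the 35), 7 regions, 5 lengths, 27 bins for mean length and 50 fragments passed, and bin 3176882 to 3176981 had a limma adjusted p of 0.0587.

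Several values reversed. With GC correction exon 1 stood at −0.19 and the bins starting at 3175382, 3176882, 3173682, 3177482 and 3179182 at −0.22, −0.23, −0.16, −0.59 and −0.53. With distinct fragments counted once the bins starting at 3175382 and 3180582 stood at −0.034 and −0.16, the +3 difference at 0.0204 and the TTS-proximal one at −0.000488 percentage points, the SD downstream and upstream at 0.942 and 2.36 bp and the upstream mean midpoint at −3.74 bp. Without single libraries the difference ranged from −0.00338 to 0.0518 percentage points in the gap, from −0.149 to 0.0203 at +3, from −1.38 to 3.18 bp for the upstream mean, from −0.0218 to 0.0568 for the ratio and from −1.06 to 0.602 points for A or T at fragment ends. With 3 libraries a genotype none of these single values could pass a test. Over all alternatives, 93 of 112 for regions, 238 of 301 for named bins, 60 of 76 for named bin lengths and 104 of 144 for named fragments kept direction and call.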
